A study of Mus musculus with 30 samples.

Results

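Tumours grown from CMS5a, a mouse fibrosarcoma line, were compared with tumours grown from 4 carcinoma lines that also come from BALB/c mice. CMS5a gave 3 RNA-seq libraries and the carcinomas gave 12, which makes 15 of the 30 libraries and 5 of the 10 lines in the series. The carcinoma lines were CT26, a colon carcinoma, CT26NYESO1, a derivative of CT26 that carries the human antigen NY-ESO-1, EMT6, a mammary carcinoma, and Renca, a renal carcinoma, with 3 libraries each. The libraries were chosen by their labelled line alone, and each carcinoma line carried equal weight in the comparison. The study asked which tumour types suit OK-432, a killed streptococcal preparation that stimulates innate immunity. Each line was grown under the skin, tumours of 10 mm in length were minced and enzymatically digested, and total RNA was taken from the cell suspension. The labels mention hosts of 2 strains (BALB/cJ or C57BL/6J) and tumours with or without OK-432 for 24 hours, and tie neither to single libraries, so both were unknown for all groups. CT26 and CT26NYESO1 share their origin, and the sarcomas are represented by 1 line only. No label says that the 3 libraries of a line came from separate mice, so the p-values below measure only the spread between these libraries.

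Fibroblasts are the cells that build connective tissue: they secrete collagens, proteoglycans and elastic-fibre proteins, and cross-link them outside the cell with the help of dedicated enzymes. A fibrosarcoma is a malignant tumour of this lineage, whereas carcinomas arise from epithelium, whose cells are joined by cadherins and claudins and held up by keratins 8 and 18. Tumours of either kind also hold host blood vessels, host fibroblasts and leukocytes.

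All libraries are labelled as CD45+ tumour-infiltrating immune cells, but the stated extraction describes no sorting step. Ptprc, the gene of CD45, had 56.3, 52.04 and 30.6 TPM in the CMS5a libraries, against a lowest, median and highest of 9.28, 36.8 and 69.2 TPM in the carcinoma libraries. The same libraries held RNA of cells that lack CD45: fibrillar collagens summed to 4103 to 5475 TPM in CMS5a, against 395 to 2313 TPM in the carcinomas. These values cannot tell an unsorted digest from an incomplete enrichment for CD45+ cells, and they are described below as those of digested tumours. Between 13743 and 14480 genes reached 1 TPM in CMS5a libraries, against 13399 to 14194 in carcinoma libraries. Mitochondrial transcripts took 18.1% to 22.4% of TPM in CMS5a, against 9.17% to 27.1% in the carcinomas. Haemoglobin transcripts took 2.20% to 4.12% in CMS5a, against 0.430% to 1.44% in the carcinomas. TPM, a share of the library's transcripts scaled for gene length, keep no read counts, so the depth behind each value is unknown.

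Of 16345 genes tested, 1402 were called higher in CMS5a (8.58%) and 1065 lower (6.52%), 15.1% in either direction. A gene was called at a limma adjusted p under 0.05 (Benjamini-Hochberg over all genes tested) with a difference of at least 1 on the log2(TPM + 1) scale, and log2 fold changes throughout are CMS5a minus the mean of the 4 carcinoma lines on that scale, which understates changes of genes at low levels. All 3 CMS5a libraries lay above all 12 carcinoma libraries for 1474 genes (9.02%) and below them for 789 (4.83%). Both the call and this separation held for 882 genes higher in CMS5a (5.4%) and 455 lower (2.78%). Against single lines, CMS5a was higher for 1665 genes and lower for 1504 against CT26 (10.2% and 9.2%), and higher for 1686 and lower for 1260 against CT26NYESO1 (10.3% and 7.71%). It was higher for 1614 and lower for 1718 against EMT6 (9.87% and 10.5%, 20.4% in either direction), and higher for 2747 and lower for 2071 against Renca (16.8% and 12.7%). These 4 comparisons share the CMS5a libraries, and the medians over all genes were 0.03, 0.03, 0.02 and 0.20 in the same order. The fit takes its error from libraries of the same line. With each line reduced to its mean, so that the spread between the 4 carcinoma lines is the error, limma called 12 genes higher (0.0734%) and 0 lower, while 645 (3.95%) and 232 (1.42%) had an unadjusted p under 0.05 with the same fold. The 12 include Igf2, Cox7b2, Tex13b, Xlr3c, Cd200r2, Peg10 and Pkia among the genes described below, and every other gene called below was called only against the spread within lines.

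The 15 named genes with the largest differences upward came from several kinds of tissue program. Below, CMS5a values are given in the order of replicates 1, 2 and 3, and carcinoma values as the lowest, median and highest of the 12 libraries. Fabp4, a fatty-acid carrier of adipocytes, macrophages and endothelium (chromosome 3, 10204088 to 10208576, mm10), had 1817, 1507 and 1306 TPM in CMS5a, against 5.03, 18.5 and 36.01 TPM in the carcinomas (log2 fold change 6.61, SE 0.30, limma adjusted p = 2.1e-10). All 3 CMS5a libraries were far above the highest carcinoma library, a CT26 library, and the 4 carcinoma lines were alike in holding little. Efemp1, which encodes the matrix protein fibulin-3 (chromosome 11, 28853204 to 28926743), had 336, 419 and 351 TPM in CMS5a, against 0.216, 1.18 and 187 TPM in the carcinomas (log2 fold change 5.99, SE 0.17, limma adjusted p = 2.3e-12). The groups did not overlap, but the 4 carcinomas were unlike: Efemp1 averaged 171 ± 16.8 TPM in Renca (SD, n = 3) and no more than 1.37 TPM in any other carcinoma line. Igf2, a fetal growth factor whose gene is imprinted (chromosome 7, 142650766 to 142666816), had 47.9, 49.5 and 44.7 TPM in CMS5a, against 0, 0 and 0.0785 TPM in the carcinomas (log2 fold change 5.59, SE 0.08, limma adjusted p = 6.8e-15). It was close to 0 in all 12 carcinoma libraries, of which the highest was an EMT6 library. Dkk3, a secreted protein of the Dickkopf family, had 91.3, 102 and 103 TPM in CMS5a, against 0.196, 0.748 and 2.896 TPM in the carcinomas (log2 fold change 5.76, SE 0.12, limma adjusted p = 1.1e-13). Pkia, an inhibitor of protein kinase A, had 78.2, 66.4 and 49.7 TPM in CMS5a, against 0.01405, 0.0795 and 0.979 TPM in the carcinomas (log2 fold change 5.81, SE 0.16, limma adjusted p = 2.3e-12). Neither gene reached 3 TPM in a carcinoma library.

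Among the other large differences, Htra1, a secreted serine protease, had 885, 1003 and 1154 TPM in CMS5a, against 4.14, 19.8 and 463 TPM in the carcinomas (log2 fold change 5.09, SE 0.10, limma adjusted p = 5.2e-14). Its log2 fold change was 7.52 against CT26 and 1.23 against EMT6, the carcinoma with the highest libraries. Pla2g5, a secreted phospholipase, had 116, 118 and 116 TPM in CMS5a, against 0.0939, 0.806 and 17.6 TPM in the carcinomas (log2 fold change 5.39, SE 0.12, limma adjusted p = 3.2e-13). Cd200r2, a member of the CD200 receptor family, had 40.7, 33.8 and 49.4 TPM in CMS5a, against 0, 0 and 0.0782 TPM in the carcinomas (log2 fold change 5.37, SE 0.10, limma adjusted p = 4.2e-14). Both genes were above every carcinoma library in all 3 CMS5a libraries. Lrrc17, a secreted leucine-rich repeat protein, had 94.8, 88.5 and 85.3 TPM in CMS5a, against 0.165, 0.802 and 7.52 TPM in the carcinomas (log2 fold change 5.301, SE 0.15, limma adjusted p = 2.3e-12). The 2 genes Cox7b2 and Tex13b, whose human forms are known mainly from testis, were listed at 0 in all 12 carcinoma libraries, so no fold is given. Cox7b2 had 66.05, 47.7 and 56.02 TPM and Tex13b 33.9, 41.3 and 34.1 TPM in CMS5a. The remaining genes of this group, Capn6, Rhox2h and Xlr3c, lie on the X chromosome and are described with it, and Col5a2 with the collagens.

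The fibrillar collagens, which form the load-bearing fibres of connective tissue, were mostly higher in CMS5a. Of 7 members tested out of 11 listed, 6 were called higher and 0 lower, with a median log2 fold change of 1.64 beside 0.04 over all genes tested. The median was 1.89 against CT26, 2.62 against CT26NYESO1, 0.32 against EMT6 and 2.04 against Renca, so EMT6 came nearest to CMS5a. Col3a1 (chromosome 1, 45311538 to 45349706), the collagen of fine reticular fibres, had 2459, 3005 and 2233 TPM in CMS5a, against 106, 214 and 739.8 TPM in the carcinomas (log2 fold change 3.41, SE 0.23, limma adjusted p = 2.3e-08). Col5a2, its neighbour on chromosome 1 (45374321 to 45503282), encodes a chain of type V collagen, which sets fibre diameter. It had 358, 461 and 353 TPM in CMS5a, against 2.19, 5.95 and 40.6 TPM in the carcinomas (log2 fold change 5.59, SE 0.27, limma adjusted p = 5.6e-10). Neither gene overlapped between the groups, and the highest carcinoma library was from EMT6 for Col3a1 and from Renca for Col5a2. The other type V chains were also called: Col5a1 had 78.7, 144 and 126 TPM in CMS5a, against 16.6, 40.7 and 63.98 TPM in the carcinomas (log2 fold change 1.64, SE 0.21, limma adjusted p = 1.6e-05). Col5a3 had 38.1, 52.2 and 51.1 TPM in CMS5a, against 2.06, 6.05 and 40.1 TPM in the carcinomas (log2 fold change 2.34, SE 0.19, limma adjusted p = 1.5e-07), and overlapped with EMT6, where the log2 fold change was 0.27. Type I collagen, the main protein of bone and skin, differed less. Col1a1 had 161, 339 and 292 TPM in CMS5a, against 29.2, 95.6 and 301 TPM in the carcinomas, and Col1a2 had 1006, 1471 and 1142 TPM, against 119, 540.5 and 1166 TPM; the log2 fold changes were 1.29 and 1.29, and both overlapped with the carcinomas. In a bulk sample, fewer cells of a type and less RNA per cell cannot be told apart, which holds for every list below.

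**Figure D1:**
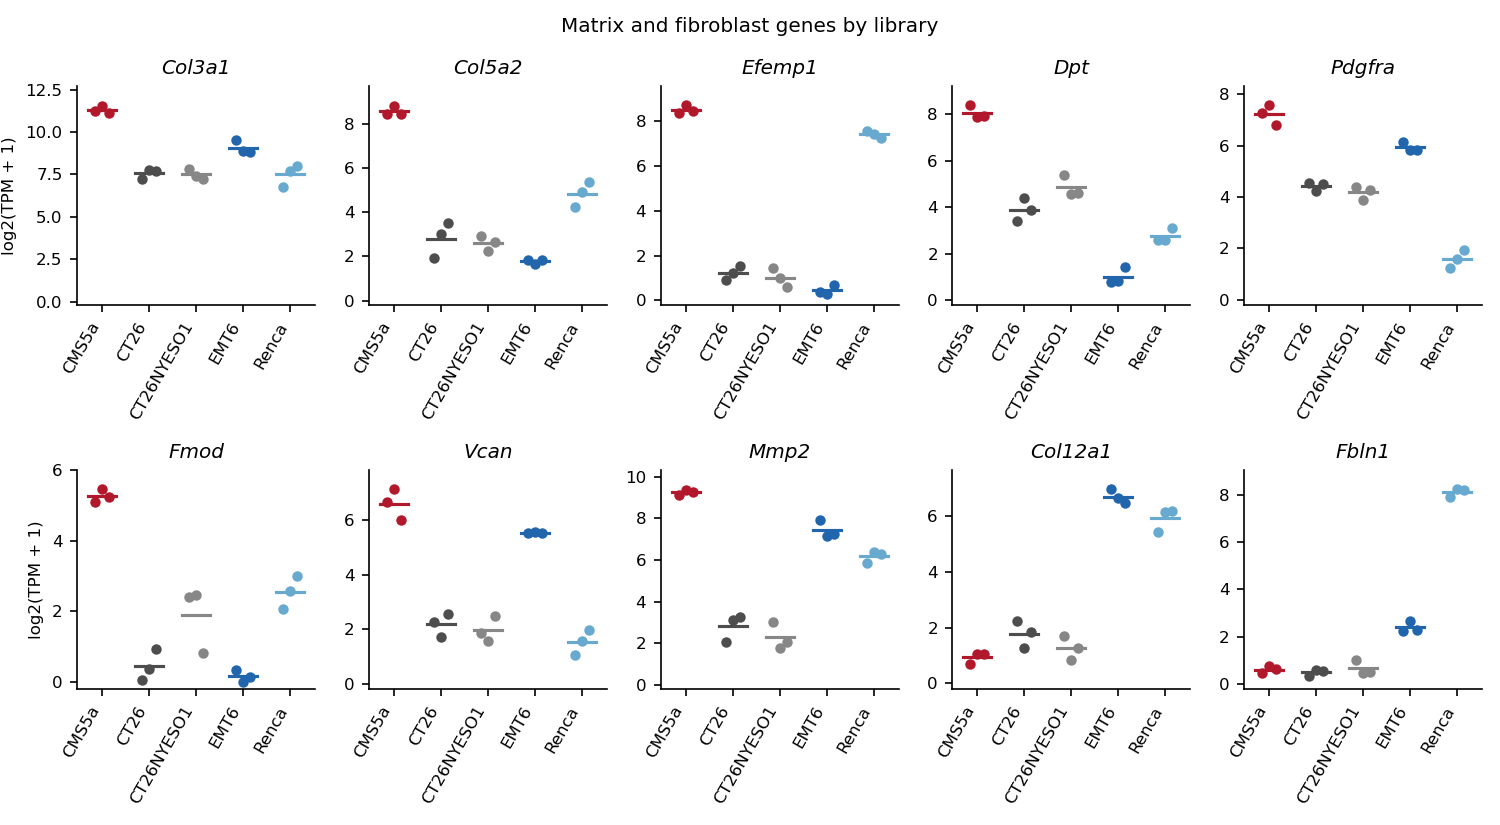
Levels of 10 matrix and fibroblast genes in the 15 libraries, as log2(TPM + 1); each point is a library and each bar the mean of a line's 3 libraries. CMS5a lies above all carcinoma libraries for Col3a1, Col5a2, Efemp1, Dpt, Pdgfra, Fmod, Vcan and Mmp2, whereas Col12a1 is highest in EMT6 and Fbln1 is low in CMS5a.

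Non-fibrillar collagens showed no common direction. Of 15 tested, 4 were higher and 4 lower, with a median log2 fold change of 0.26. With Renca left out, 7 were higher, and the median changed sign with EMT6 left out. Col6a2, a chain of the microfibril-forming type VI collagen, had 237, 327 and 259 TPM in CMS5a, against 4.59, 30.8 and 296 TPM in the carcinomas (log2 fold change 2.99, SE 0.28, limma adjusted p = 6.6e-07). Col7a1, the collagen of anchoring fibrils, had 12.99, 16.9 and 14.9 TPM in CMS5a, against 0.422, 2.58 and 17.2 TPM in the carcinomas (log2 fold change 1.95, SE 0.14, limma adjusted p = 5.0e-08). Both overlapped with EMT6, against which the log2 fold changes were 0.45 and -0.03. In the other direction, Col12a1, a fibre-associated collagen, had 0.611, 1.08 and 1.09 TPM in CMS5a, against 0.807, 22.97 and 123 TPM in the carcinomas (log2 fold change -2.98, SE 0.23, limma adjusted p = 6.9e-08). Col4a5, a chain of basement-membrane collagen, had 0.223, 0.409 and 0.4296 TPM in CMS5a, against 0.0327, 20.3 and 36.6 TPM in the carcinomas (log2 fold change -3.14, SE 0.15, limma adjusted p = 3.0e-10). The difference in Col12a1 was carried by EMT6 and Renca (log2 fold changes -5.75 and -4.99), and that in Col4a5 by CT26, CT26NYESO1 and EMT6, since Renca held as little of it as CMS5a (0.24).

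Of 17 genes for collagen folding, trimming and cross-linking, 8 were higher and 2 lower, while the median was -0.0047. Loxl1, a lysyl oxidase that cross-links elastic fibres, had 81.5, 98.2 and 92.4 TPM in CMS5a, against 1.44, 7.99 and 22.7 TPM in the carcinomas (log2 fold change 3.54, SE 0.22, limma adjusted p = 8.1e-09). Lox, the founding member of that family, had 152, 219 and 127 TPM in CMS5a, against 1.61, 26.6 and 102 TPM in the carcinomas (log2 fold change 3.099, SE 0.30, limma adjusted p = 7.8e-07). P3h1, a prolyl 3-hydroxylase that modifies collagen chains in the endoplasmic reticulum, had 57.9, 73.8 and 69.7 TPM in CMS5a, against 9.25, 25.1 and 47.9 TPM in the carcinomas (log2 fold change 1.56, SE 0.11, limma adjusted p = 3.6e-08). All 3 genes were separated from every carcinoma library. Its partner Crtap (112 to 167 TPM in CMS5a, against 48.7 to 87.5 TPM) and the collagen chaperone Serpinh1 (1334 to 1518 TPM, against 429.9 to 772 TPM) were likewise higher and separated. Loxl2, another lysyl oxidase, ran the other way with 1.08, 0.994 and 1.33 TPM in CMS5a, against 1.01, 2.96 and 34.3 TPM in the carcinomas (log2 fold change -1.56, SE 0.21, limma adjusted p = 2.6e-05), and was no longer called with EMT6 left out. Pcolce, which speeds the trimming of procollagen, was at 417 to 607 TPM in CMS5a, against 413 to 705 TPM in the carcinomas, and was not called (log2 fold change -0.0047).

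Proteoglycans, core proteins with long sugar chains that bind collagen, water and growth factors, gave 9 calls upward and 0 downward among 13 tested, with a median of 2.09. Fmod, or fibromodulin, had 33.5, 43.1 and 36.5 TPM in CMS5a, against 0, 0.8402 and 6.98 TPM in the carcinomas (log2 fold change 3.999, SE 0.30, limma adjusted p = 5.7e-08). Vcan, the large hyaluronan-binding proteoglycan versican, had 102, 139 and 63.1 TPM in CMS5a, against 1.07, 3.399 and 46.6 TPM in the carcinomas (log2 fold change 3.81, SE 0.25, limma adjusted p = 1.6e-08). Lum, or lumican, had 122, 85.2 and 74.4 TPM in CMS5a, against 1.404, 5.93 and 34.03 TPM in the carcinomas (log2 fold change 3.47, SE 0.37, limma adjusted p = 2.5e-06). These 3 were separated from all carcinoma libraries, of which the highest was from Renca for Fmod, EMT6 for Vcan and CT26 for Lum. Bgn, or biglycan, was separated as well, with 348, 623 and 596 TPM in CMS5a, against 32.5, 69.2 and 147 TPM in the carcinomas (log2 fold change 2.96, SE 0.30, limma adjusted p = 1.2e-06). Prelp (3.94 to 6.601 TPM in CMS5a, against 0.781 to 29.4 TPM) and Srgn, the proteoglycan of leukocyte granules (69.5 to 91.5 TPM, against 38.2 to 421 TPM), were not called.

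Among 24 matrix glycoproteins and elastic-fibre genes, 13 were higher and 3 lower, with a median of 1.55. Elastic fibres are made of an elastin core on a scaffold of fibrillin microfibrils. Eln, elastin itself, had 21.6, 24.8 and 18.04 TPM in CMS5a, against 0.192, 1.31 and 14.96 TPM in the carcinomas (log2 fold change 2.799, SE 0.29, limma adjusted p = 2.0e-06). Mfap4, a microfibril-associated protein, had 73.9, 89.3 and 56.5 TPM in CMS5a, against 0.0876, 3.88 and 13.7 TPM in the carcinomas (log2 fold change 4.18, SE 0.40, limma adjusted p = 7.1e-07). Matn2, a matrilin that links matrix filaments, had 135, 147 and 124 TPM in CMS5a, against 1.61, 15.1 and 97.1 TPM in the carcinomas (log2 fold change 3.202, SE 0.16, limma adjusted p = 5.0e-10). All 3 were above every carcinoma library, and Fbn1, or fibrillin-1, and Sparc, a collagen-binding glycoprotein, were too (29.7 to 53.2 TPM in CMS5a, against 1.74 to 17.7 TPM, and 1824 to 1983 TPM, against 288 to 1049 TPM). The 3 lower members were Fbln1, a fibulin (0.379 to 0.698 TPM in CMS5a, against 0.2598 to 296 TPM in the carcinomas, log2 fold change -2.29), Ltbp2, a latent TGF-beta binding protein (0.377 to 0.447 TPM, against 1.41 to 8.06 TPM, -1.74), and Tnc, tenascin-C (1.89 to 4.38 TPM, against 1.15 to 107 TPM, -1.48). Fn1, fibronectin, ranged over 369 to 827 TPM in CMS5a and 73.2 to 1156 TPM in the carcinomas and was not called.

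Matrix-degrading proteases split by member. Of 16 proteases and inhibitors tested, 5 were higher and 4 lower. Mmp2, the gelatinase that fibroblasts secrete, had 559, 665 and 608 TPM in CMS5a, against 2.43, 32.9 and 239 TPM in the carcinomas (log2 fold change 4.58, SE 0.27, limma adjusted p = 3.6e-09). Adamts5, which cleaves large proteoglycans such as versican, had 49.7, 53.3 and 35.6 TPM in CMS5a, against 0.129, 7.16 and 45.3 TPM in the carcinomas (log2 fold change 3.02, SE 0.14, limma adjusted p = 3.1e-10). Mmp2 was separated from all carcinoma libraries, while Adamts5 overlapped with Renca (0.13 against that line). Mmp12, the elastase of macrophages, had 0.927, 1.28 and 1.76 TPM in CMS5a, against 2.08, 23.97 and 51.3 TPM in the carcinomas (log2 fold change -2.92, SE 0.23, limma adjusted p = 1.3e-07). Mmp3, or stromelysin-1, had 1.06, 1.29 and 1.08 TPM in CMS5a, against 2.04, 9.47 and 211 TPM in the carcinomas (log2 fold change -2.75, SE 0.29, limma adjusted p = 1.9e-06). Both were below every carcinoma library. Mmp10, or stromelysin-2, was called lower and listed at 0 in all 3 CMS5a libraries, against 0, 0.8598 and 68.96 TPM in the carcinomas. Mmp14, which activates the Mmp2 protein at the cell surface, was higher and separated (241 to 311 TPM in CMS5a, against 48.4 to 210.4 TPM in the carcinomas), and the inhibitors Timp1, Timp2 and Timp3 were not called.

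The fibroblast markers did not move as a block. Of 14 tested, 4 were higher and 0 lower, with a median of 0.29. Dpt, or dermatopontin, a marker of fibroblasts across tissues, had 329, 235 and 242 TPM in CMS5a, against 0.722, 8.67 and 40.8 TPM in the carcinomas (log2 fold change 4.93, SE 0.23, limma adjusted p = 3.0e-10). Pi16, which marks fibroblasts of the adventitia, had 51.96, 55.3 and 46.1 TPM in CMS5a, against 1.65, 3.87 and 13.8 TPM in the carcinomas (log2 fold change 3.303, SE 0.22, limma adjusted p = 1.8e-08). Pdgfra, the PDGF receptor alpha, had 153, 188 and 111 TPM in CMS5a, against 1.35, 18.98 and 70.3 TPM in the carcinomas (log2 fold change 3.18, SE 0.17, limma adjusted p = 1.5e-09). These 3 were above all carcinoma libraries, and Dpt was lowest in EMT6, at 1.07 ± 0.566 TPM (SD, n = 3). Pdgfrb, the receptor of fibroblasts and pericytes, had 88.1, 142 and 109 TPM in CMS5a, against 11.1, 27.6 and 104 TPM in the carcinomas (log2 fold change 2.03, SE 0.23, limma adjusted p = 3.8e-06), and overlapped with EMT6. Acta2, the smooth-muscle actin of myofibroblasts, was at 20.05 to 20.9 TPM in CMS5a, against 1.7004 to 406 TPM in the carcinomas, and Fap, fibroblast activation protein, at 1.75 to 2.497 TPM, against 0.674 to 3.72 TPM. Neither was called, and S100a4 (2132 to 2425 TPM in CMS5a, against 540.2 to 8211 TPM) and Thy1 (10.8 to 12.5 TPM, against 3.33 to 51.1 TPM) were not called either.

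Among 15 mesenchymal transcription factors, 7 were higher and 0 lower, with a median of 0.95. By line the median was -0.17 against CT26, 0.43 against CT26NYESO1, 0.64 against EMT6 and 1.79 against Renca, so no upward shift was seen against CT26. Osr2, a zinc-finger factor of limb and palate mesenchyme, had 43.8, 62.1 and 39.3 TPM in CMS5a, against 0.0357, 1.55 and 15.1 TPM in the carcinomas (log2 fold change 4.14, SE 0.26, limma adjusted p = 9.0e-09), with no overlap. Snai2, a repressor of cadherin genes, had 28.5, 34.6 and 23.6 TPM in CMS5a, against 0.583, 9.904 and 29.5 TPM in the carcinomas (log2 fold change 1.87, SE 0.16, limma adjusted p = 2.7e-07). Snai1, its relative, had 36.8, 56.6 and 52.7 TPM in CMS5a, against 10.3, 15.1 and 78.8 TPM in the carcinomas (log2 fold change 1.29, SE 0.23, limma adjusted p = 3.1e-04). Both overlapped with the carcinomas, Snai2 with CT26 and Snai1 with EMT6. Twist2 had 27.95, 48.4 and 40.7 TPM in CMS5a, against 0, 31.7 and 59.9 TPM in the carcinomas (log2 fold change 1.34, SE 0.18, limma adjusted p = 2.4e-05), a call that rested on EMT6: without that line the log2 fold change was 0.05 (limma adjusted p = 0.86). Twist1, Zeb1, Zeb2, Prrx1 and Runx2 were not called, with log2 fold changes of -0.07, 0.53, -0.101, 0.599 and 0.07.

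Few markers of other mesenchymal tissues reached the level for testing, so their counts are hard to tell from the shares over all genes tested (8.58% higher, 6.52% lower). None of 7 skeletal-muscle genes tested was called in either direction, and the myogenic factors Myod1, Myog, Myf5 and Pax7 stayed under the level for testing. Of 5 bone and cartilage genes, 0 were higher and 3 lower. Dmp1, a protein of mineralised matrix, had 0, 0.0903 and 0.186 TPM in CMS5a, against 0.0533, 3.58 and 34.5 TPM in the carcinomas (log2 fold change -2.296, SE 0.19, limma adjusted p = 2.1e-07), with the highest values in CT26. The calls on Bglap and Bglap2, near-identical osteocalcin genes whose reads may be shared, were lost without CMS5a replicate 1, without Renca replicate 1 or without Renca as a whole, and that on Bglap2 also without EMT6 replicate 2 or 3. The tendon gene Kera, keratocan, had 6.63, 4.503 and 2.31 TPM in CMS5a, against 0, 0.04297 and 1.03 TPM in the carcinomas (log2 fold change 2.21, SE 0.19, limma adjusted p = 3.0e-07), whereas Scx, the tendon factor scleraxis, had 0.516, 0.429 and 0.5197 TPM, against 0.0606, 2.53 and 140.1 TPM (log2 fold change -1.86, SE 0.15, limma adjusted p = 1.4e-07), its highest library being Renca. The call on Scx did not hold with Renca left out. Of the adipocyte markers, Fabp4 was called, Pparg was not (1.601 to 3.26 TPM in CMS5a, against 0.302 to 1.17 TPM), and Adipoq, Plin1, Lep, Cfd and Cidec were under the level for testing. The epidermal carrier Fabp5, looked at after the value of Fabp4 was seen, was at 194 to 212 TPM in CMS5a, against 7.68 to 41.01 TPM in the carcinomas (log2 fold change 3.26), also with no overlap.

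**Figure D2:**
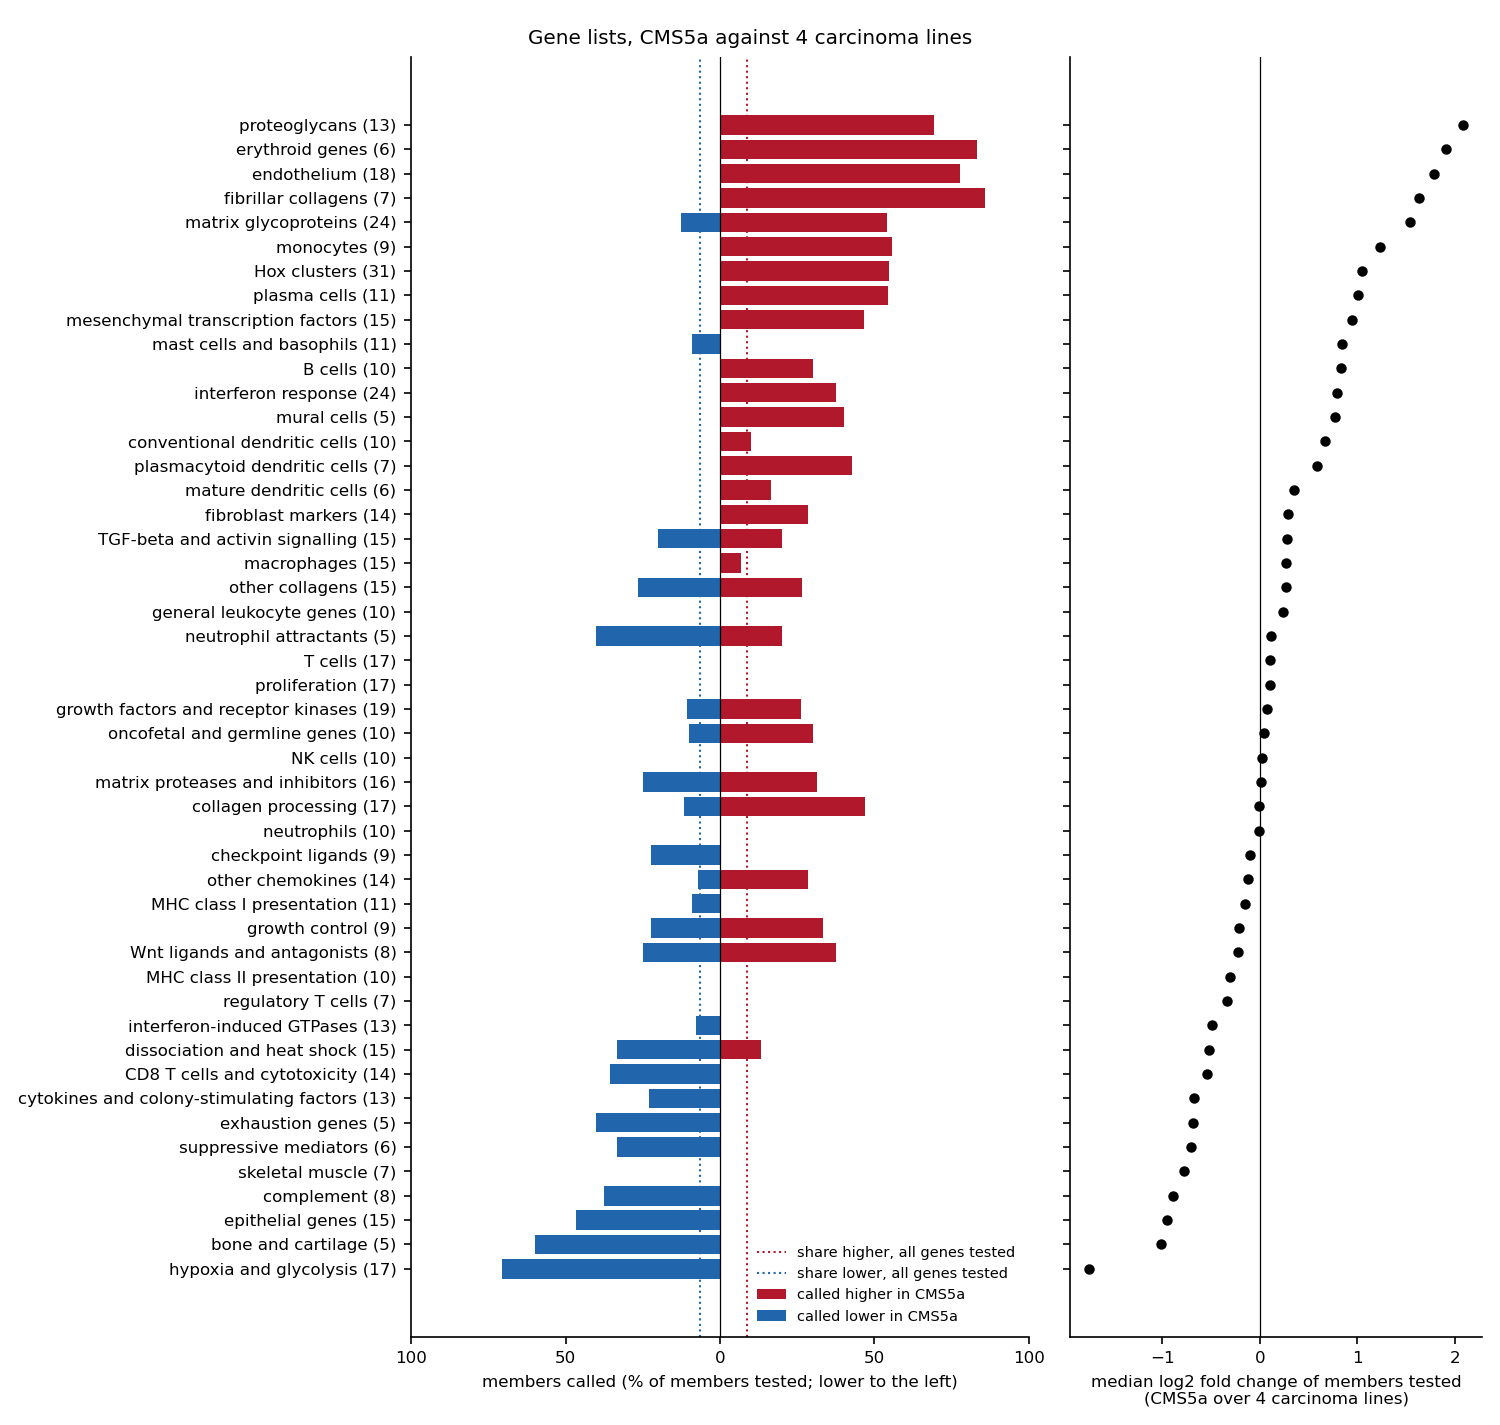
Left, the share of each gene list's tested members called higher (red, to the right) and lower (blue, to the left) in CMS5a, with the shares over all genes tested (8.58% and 6.52%) as dotted lines; right, the median log2 fold change of the list. Lists with 5 or more members tested are drawn, with that number in brackets. Proteoglycans, endothelium, erythroid genes and fibrillar collagens lie at the upper end and hypoxia and glycolysis genes at the lower end.

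Homeobox genes of the Hox clusters record the position of a cell along the body axis and are kept on in adult fibroblasts. Of 39 Hox genes listed, 31 were tested, 17 were higher in CMS5a and 0 lower, with a median of 1.05. The carcinomas were unlike in this respect. The median was 1.405 against CT26, 1.31 against CT26NYESO1 and 2.05 against EMT6, but -0.38 against Renca, which expressed many of the same genes. Hoxc10 (chromosome 15, 102966796 to 102971893), a lumbar-level gene, had 29.1, 36.9 and 33.8 TPM in CMS5a, against 0, 0.0843 and 28.1 TPM in the carcinomas (log2 fold change 3.86, SE 0.13, limma adjusted p = 9.8e-12). All libraries above 1 TPM among the carcinomas were from Renca, with a mean of 24.4 ± 5.33 TPM (SD, n = 3), and CT26, CT26NYESO1 and EMT6 averaged no more than 0.0964 TPM. The next gene of that cluster, Hoxc11, had 10.5, 13.4 and 11.95 TPM in CMS5a, against 0, 0.0554 and 0.418 TPM in the carcinomas (log2 fold change 3.57, SE 0.10, limma adjusted p = 2.3e-12). Hoxb2, from the anterior end of the B cluster, had 8.63, 9.56 and 8.01 TPM in CMS5a, against 0, 0.0138 and 0.816 TPM in the carcinomas (log2 fold change 3.12, SE 0.11, limma adjusted p = 2.3e-11). In both of these genes Renca was near 0, like the other carcinomas. Hoxb7 had 16.96, 20.8 and 22.2 TPM in CMS5a, against 0, 0.322 and 46.4 TPM in the carcinomas (log2 fold change 2.87, SE 0.15, limma adjusted p = 1.2e-09), and was higher still in Renca (-0.91 for CMS5a against that line). Hoxb13, the most posterior gene of the B cluster, had 4.72, 3.95 and 5.39 TPM in CMS5a and was listed at 0 in all 12 carcinoma libraries. Hoxd10 and Hoxd11 were at no more than 0.359 and 0.0962 TPM in CMS5a, against up to 27.7 and 7.25 TPM in the carcinomas, and were not called.

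**Figure D3:**
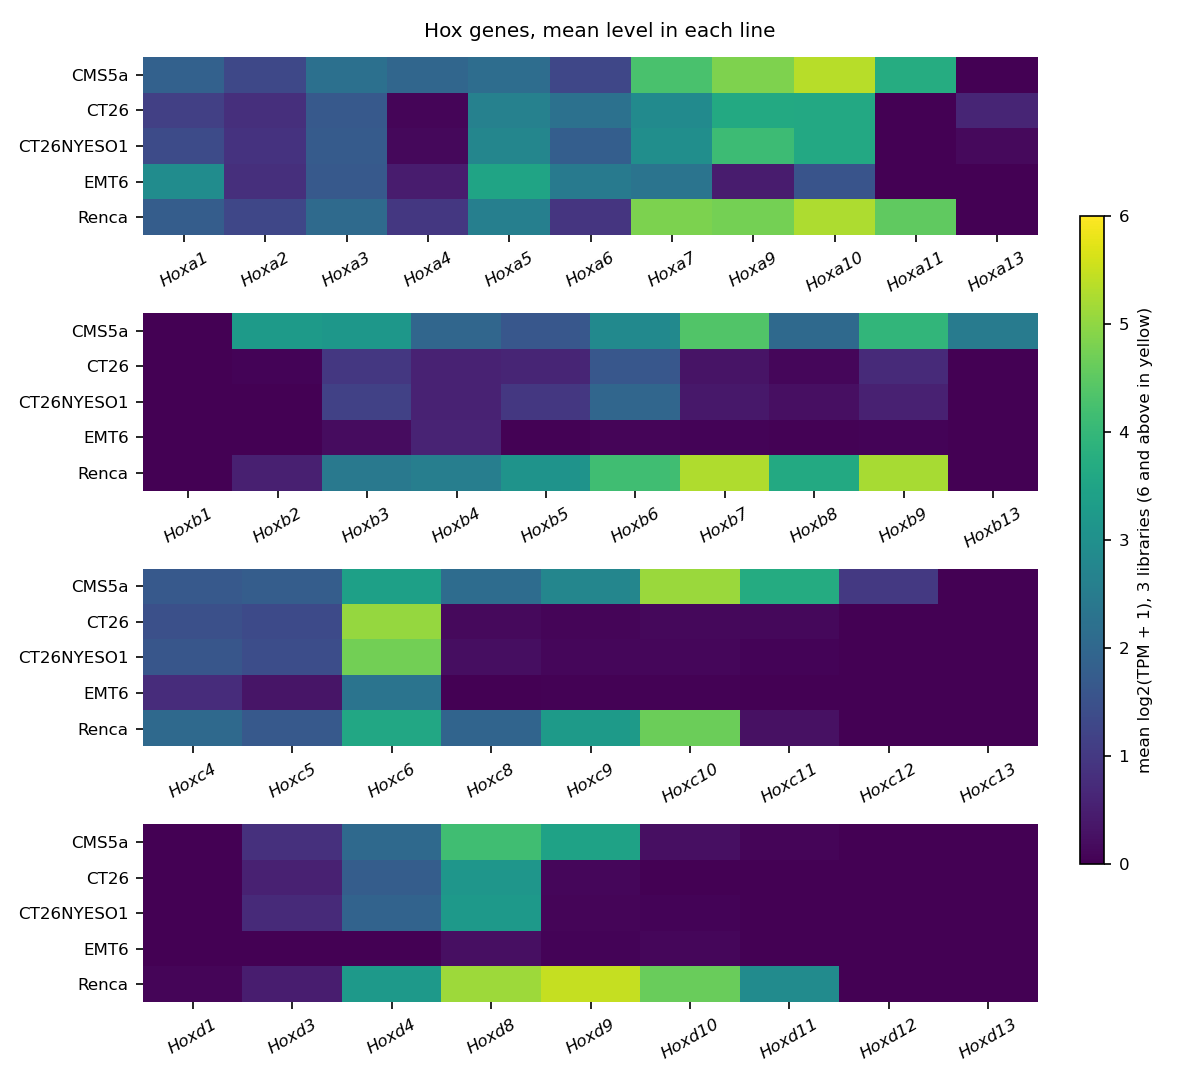
Mean log2(TPM + 1) over 3 libraries for each Hox gene (columns, in cluster order) in each line (rows), with a shared colour scale from 0 to 6. CMS5a has Hoxb2, Hoxb13 and Hoxc11, which the carcinomas lack or hold near 0, while Hoxb7, Hoxb9, Hoxc10 and Hoxd9 are shown by CMS5a and Renca.

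Secreted growth factors differed by member. Of 19 growth factors and receptor kinases, 5 were higher and 2 lower. Igf1, a second insulin-like ligand, had 52.998, 46.2 and 22.6 TPM in CMS5a, against 0.466, 0.754 and 15.3 TPM in the carcinomas (log2 fold change 3.75, SE 0.23, limma adjusted p = 5.7e-09). Fgf7, a mesenchymal ligand that acts on epithelium, had 77.5, 84.7 and 61.4 TPM in CMS5a, against 0.0527, 8.41 and 27.3 TPM in the carcinomas (log2 fold change 3.68, SE 0.17, limma adjusted p = 3.8e-10). Hgf, the ligand of the Met receptor, had 18.3, 26.1 and 12.8 TPM in CMS5a, against 0.129, 1.08 and 7.44 TPM in the carcinomas (log2 fold change 2.93, SE 0.20, limma adjusted p = 1.8e-08). With Igf2, these 4 ligands were above every carcinoma library. Among receptors, Fgfr1 was higher and separated (172 to 248 TPM in CMS5a, against 8.01 to 129 TPM), while Igf1r, Met, Egfr and Erbb2 were not called, with log2 fold changes of -0.18, 0.17, 0.35 and -0.02. The lower members were Areg, an EGF-receptor ligand (0.129 to 0.286 TPM in CMS5a, against 0.2003 to 61.7 TPM), and Pdgfa (7.32 to 15.5 TPM, against 19.3 to 31.3 TPM).

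In TGF-beta and activin signalling, 3 of 15 genes were higher and 3 lower, with 5 higher when EMT6 was left out. Fstl1, a secreted follistatin-like protein, had 337, 424 and 304 TPM in CMS5a, against 2.15, 18.7 and 57.8 TPM in the carcinomas (log2 fold change 4.44, SE 0.26, limma adjusted p = 3.7e-09). Tgfbr2, the type II receptor that binds TGF-beta, had 144, 148 and 113 TPM in CMS5a, against 9.92, 25.6 and 77.7 TPM in the carcinomas (log2 fold change 2.26, SE 0.15, limma adjusted p = 2.0e-08). Both were separated upward. Fst, follistatin, which traps activin, had 0.254, 0.443 and 0.374 TPM in CMS5a, against 0.834, 36.2 and 125 TPM in the carcinomas (log2 fold change -4.03, SE 0.25, limma adjusted p = 7.7e-09). Inhba, whose product forms activin A, had 2.96, 4.96 and 3.25 TPM in CMS5a, against 5.55, 21.2 and 42.2 TPM in the carcinomas (log2 fold change -2.17, SE 0.22, limma adjusted p = 1.2e-06). The ligand and its trap were thus both below every carcinoma library. The ligands Tgfb1 and Tgfb3 were not called (log2 fold changes 0.28 and 0.04). Of 8 Wnt pathway genes, 3 were higher, Dkk3 and the receptor Fzd2 among them (48.9, 56.7 and 45.2 TPM in CMS5a, against 7.36, 9.26 and 15.8 TPM, log2 fold change 2.25, SE 0.16, limma adjusted p = 3.2e-08), and 2 were lower. Wnt10a, a ligand, had 1.29, 1.49 and 1.48 TPM in CMS5a, against 11.4, 25.5 and 62.8 TPM in the carcinomas (log2 fold change -3.55, SE 0.12, limma adjusted p = 9.4e-12), below every carcinoma library. The other was Fzd1, with 0.515, 0.557 and 0.279 TPM in CMS5a, against 0.703, 1.51 and 39.3 TPM in the carcinomas (log2 fold change -1.697, SE 0.17, limma adjusted p = 1.7e-06), a call lost with EMT6 left out.

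Of 10 oncofetal and germline genes, 3 were higher and 1 lower. Igf2bp3, a fetal RNA-binding protein that binds Igf2 transcripts in human cells, had 23.04, 27.5 and 18.2 TPM in CMS5a, against 0.045003, 0.173 and 0.5905 TPM in the carcinomas (log2 fold change 4.28, SE 0.14, limma adjusted p = 8.8e-12). Afp, the fetal serum protein alpha-fetoprotein, had 37.9, 40.1 and 42.96 TPM in CMS5a, against 0.04603, 1.45 and 5.5996 TPM in the carcinomas (log2 fold change 4.16, SE 0.15, limma adjusted p = 1.9e-11). Both were separated. Rhox5, a homeobox gene of the reproductive tract that many mouse tumour lines express, had 545, 518 and 614 TPM in CMS5a, against 0, 167 and 466 TPM in the carcinomas (log2 fold change 4.26, SE 0.14, limma adjusted p = 8.4e-12). CT26 and CT26NYESO1 held almost as much (log2 fold changes 0.44 and 0.495), and EMT6 and Renca held little. The lower member was Prl2c2, a proliferin whose near-identical copies may share reads (0.196, 0.2501 and 0.237 TPM in CMS5a, against 0, 0.575 and 41.7 TPM, log2 fold change -1.33, SE 0.13, limma adjusted p = 1.4e-06), and the call was lost without EMT6. H19, the imprinted neighbour of Igf2, was not called (2.06 to 2.73 TPM in CMS5a, against 0.596 to 9.303 TPM, log2 fold change 0.01). A list of imprinted genes was then drawn up after the Igf2 value was seen, so it carries no test: 6 of 16 were called higher and 2 lower. Beside Igf2, they were Grb10, an adaptor that dampens insulin receptor signalling (57.6 to 83.8 TPM in CMS5a, against 0.353 to 6.61 TPM), Peg10 (21.2 to 35.4 TPM, against 0 to 0.468 TPM), Sgce (42.7 to 49.5 TPM, against 0.222 to 34.7 TPM), Mest (11.7 to 17.4 TPM, against 0.5002 to 11.7 TPM) and Mcts2 (36.9 to 44.3 TPM, against 5.002 to 35.5 TPM). Sgce and Peg10 are neighbours on chromosome 6. The 2 lower genes were Igf2r, the receptor that removes IGF2 (5.27 to 8.44 TPM in CMS5a, against 7.69 to 26.5 TPM), and Zrsr1 (2.63 to 4.18 TPM, against 5.77 to 17.6 TPM).

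The epithelial genes gave 0 calls upward and 7 downward among 15 tested, with a median of -0.95. The median was 0.0028 against CT26, -0.01 against CT26NYESO1, -1.23 against EMT6 and -2.52 against Renca, so the shift lay against EMT6 and Renca. At a pseudocount of 0.1, 12 were lower, while lower calls over all genes also rose, from 1065 to 1735. With CT26 and CT26NYESO1 averaged into 1 line, or CT26NYESO1 left out, 11 were. Krt18, the keratin of simple epithelium, had 0.496, 0.127 and 0.323 TPM in CMS5a, against 6.98, 28.5 and 778 TPM in the carcinomas (log2 fold change -5.05, SE 0.20, limma adjusted p = 4.8e-11). It was below all carcinoma libraries, with the highest in Renca. Krt8, its partner in the filament, had 0.273, 0.3604 and 0.471 TPM in CMS5a, against 0.0284, 285 and 1179 TPM in the carcinomas (log2 fold change -4.48, SE 0.14, limma adjusted p = 8.4e-12). The difference came from EMT6 and Renca (-8.803 and -9.38), since CT26 and CT26NYESO1 held as little as CMS5a. The calls on Krt20 and Cldn3 were each lost with 1 line left out. Krt20, the intestinal keratin, had 0.0745, 0.0531 and 0 TPM in CMS5a, against 0, 2.41 and 136 TPM in the carcinomas (log2 fold change -2.47, SE 0.15, limma adjusted p = 7.6e-09), and the call was lost without CT26. Krt20 was lower against both CT26 (-6.90) and CT26NYESO1 (-2.49), and near the level of EMT6 and Renca (0.03 and -0.50). Cldn3, a tight-junction claudin, had 0, 0 and 0.115 TPM in CMS5a, against 0, 0.0183 and 342 TPM in the carcinomas (log2 fold change -1.99, SE 0.11, limma adjusted p = 3.3e-09), and without Renca its log2 fold change was 0.03. Epcam, the epithelial adhesion molecule, was at 0.301 to 0.317 TPM in CMS5a, against 0 to 10.2 TPM in the carcinomas, and was not called, and Esrp1, Grhl2 and Ovol1 were under the level for testing.

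The named genes with the largest differences downward were mixed in kind. Lgals7, the keratinocyte lectin galectin-7, had 0.322, 0.6204 and 1.22 TPM in CMS5a, against 5.301, 161 and 352 TPM in the carcinomas (log2 fold change -5.81, SE 0.22, limma adjusted p = 2.8e-11). Baiap2l1, an adaptor that bends the plasma membrane, had 0.1101, 0.123 and 0.151 TPM in CMS5a, against 1.01, 253 and 734 TPM in the carcinomas (log2 fold change -5.62, SE 0.13, limma adjusted p = 3.2e-13). Clu, the extracellular chaperone clusterin, had 1.597, 3.04 and 3.18 TPM in CMS5a, against 32.4, 61.3 and 662 TPM in the carcinomas (log2 fold change -4.85, SE 0.16, limma adjusted p = 9.8e-12). All 3 were below every carcinoma library, though for Baiap2l1 the log2 fold change against EMT6 was only -0.95. Mt2, a zinc-binding metallothionein, had 26.8, 35.4 and 32.8 TPM in CMS5a, against 223, 789 and 1254 TPM in the carcinomas (log2 fold change -4.27, SE 0.19, limma adjusted p = 2.3e-10). B3gnt3, a glycosyltransferase, had 1.13, 0.655 and 0.733 TPM in CMS5a, against 17.2, 51.3 and 69.1 TPM in the carcinomas (log2 fold change -4.64, SE 0.15, limma adjusted p = 9.8e-12). Fendrr, a long noncoding RNA of lateral mesoderm, had 0, 0.0653 and 0.0959 TPM in CMS5a, against 9.13, 18.9 and 32.7 TPM in the carcinomas (log2 fold change -4.16, SE 0.15, limma adjusted p = 2.8e-11). These 3 were lower against each carcinoma line and separated from all. Inmt, a methyltransferase, had 0.211, 0.363 and 0.122 TPM in CMS5a, against 2.203, 22.5 and 126 TPM in the carcinomas (log2 fold change -4.35, SE 0.49, limma adjusted p = 4.3e-06). Wfdc2 (0 to 0.0682 TPM in CMS5a, against 0 to 2048 TPM, log2 fold change -4.696) was a difference from EMT6 and Renca alone. Amigo2 (0.1795 to 0.332 TPM, against 0.242 to 231 TPM, -3.88) was one mainly from CT26 and CT26NYESO1.

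Genes that cells turn on when oxygen is short were lower in CMS5a. In hypoxia, HIF transcription factors bind a core of A or G followed by CGTG and raise glycolytic enzymes, the glucose transporter, and genes for mitophagy and angiogenesis. Of 17 genes on the list, 12 were lower and 0 higher, with a median of -1.76, and 10 of the 12 were below all 12 carcinoma libraries. The median was -1.59 against CT26, -1.23 against CT26NYESO1, -2.601 against EMT6 and -1.48 against Renca. Bnip3, a mitophagy receptor (chromosome 7, 138890836 to 138909519), had 15.7, 21.2 and 25.1 TPM in CMS5a, against 105, 170.4 and 370.4 TPM in the carcinomas (log2 fold change -3.23, SE 0.24, limma adjusted p = 5.0e-08). Ankrd37, an ankyrin-repeat protein, had 2.32, 1.95 and 5.17 TPM in CMS5a, against 12.1, 26.1 and 111 TPM in the carcinomas (log2 fold change -3.17, SE 0.30, limma adjusted p = 8.0e-07). Ndrg1, a stress-responsive growth regulator, had 42.1, 58.4 and 70.2 TPM in CMS5a, against 118, 323 and 1174 TPM in the carcinomas (log2 fold change -2.71, SE 0.25, limma adjusted p = 5.3e-07). The highest CMS5a library stayed under the lowest carcinoma library in all 3. Adm, the vasodilator adrenomedullin, had 1.72, 1.58 and 1.97 TPM in CMS5a, against 1.54, 11.8 and 283 TPM in the carcinomas (log2 fold change -2.51, SE 0.12, limma adjusted p = 4.7e-10), and was as low in CT26NYESO1 (0.01). The glucose transporter Slc2a1 (30.5 to 43.1 TPM in CMS5a, against 75.04 to 425 TPM, log2 fold change -1.92) and hexokinase Hk2 (10.2 to 15.1 TPM, against 23.9 to 88.9 TPM, -1.76) were separated downward. Further along glycolysis, Aldoa (322 to 421 TPM in CMS5a, against 749.6 to 2081 TPM, -1.72), Pgk1 (332 to 431 TPM, against 479 to 2225 TPM, -1.48) and Ldha (702 to 833 TPM, against 1229.8 to 3137 TPM, -1.33) were too. Pdk1, a kinase that shuts off pyruvate entry into mitochondria (7.44 to 10.3 TPM, against 14.4 to 86.5 TPM, -2.18), and Ero1l, an oxidase of protein folding (35.4 to 48.3 TPM, against 77.04 to 745 TPM, -2.43), complete that set of 10. Car9, a carbonic anhydrase, was lower with overlap (2.18 to 2.62 TPM in CMS5a, against 1.14 to 77.04 TPM, -2.33). The 5 genes not called were Vegfa (-0.44), Egln3 (-0.07), Eno1 (-0.35), Pfkfb3 (-0.51) and Ddit4 (-0.99).

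**Figure D4:**
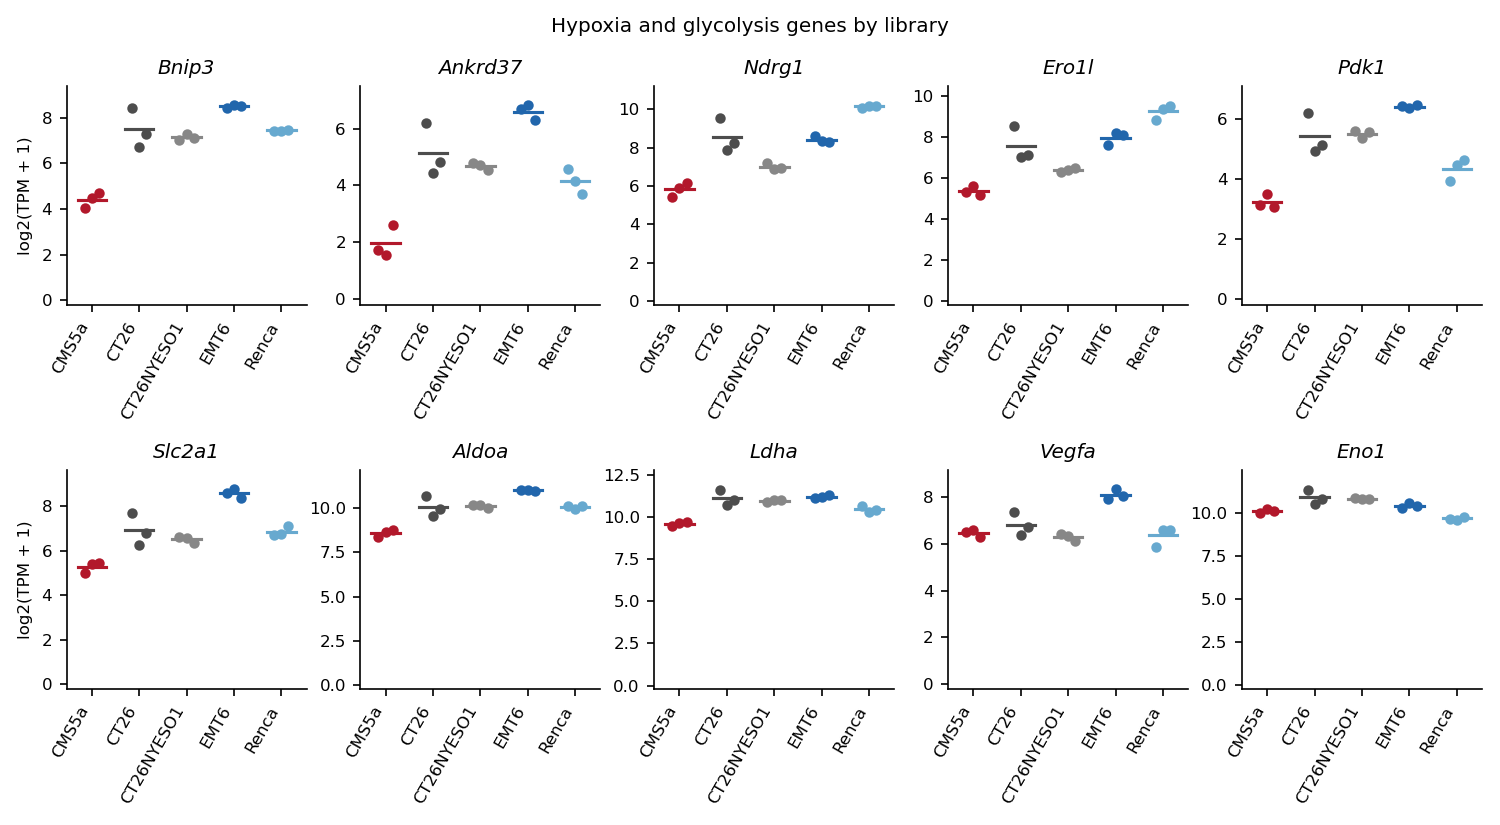
Levels of 10 hypoxia and glycolysis genes in the 15 libraries, as log2(TPM + 1); each point is a library and each bar the mean of a line's 3 libraries. CMS5a lies below every carcinoma library in the first 8 genes, and within the carcinoma range for Vegfa and Eno1.

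The promoters of 3 separated members are shown because their letters can be set beside the shared direction. They are the 250 bases before the RefSeq transcription start (GRCm38.p6), written 5′ to 3′ on the gene's strand, with each ACGTG or its reverse complement CACGT in capitals, and overlapping matches run together; the G form of the core, GCGTG or CACGC, is left in lower case. Bnip3 is at chr7:138909507-138909756, minus strand, Ankrd37 at chr8:45999851-46000100, minus strand and Pgk1, phosphoglycerate kinase, at chrX:106186850-106187099, plus strand.
Bnip3: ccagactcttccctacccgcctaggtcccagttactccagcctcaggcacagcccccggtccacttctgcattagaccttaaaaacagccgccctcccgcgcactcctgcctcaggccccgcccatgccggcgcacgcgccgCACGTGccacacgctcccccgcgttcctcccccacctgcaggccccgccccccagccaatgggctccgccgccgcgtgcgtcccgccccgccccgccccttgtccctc
Ankrd37: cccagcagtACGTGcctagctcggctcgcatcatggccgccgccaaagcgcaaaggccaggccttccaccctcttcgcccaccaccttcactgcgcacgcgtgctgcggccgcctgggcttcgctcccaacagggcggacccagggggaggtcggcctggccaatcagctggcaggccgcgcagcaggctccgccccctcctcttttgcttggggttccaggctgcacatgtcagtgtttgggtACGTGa
Pgk1: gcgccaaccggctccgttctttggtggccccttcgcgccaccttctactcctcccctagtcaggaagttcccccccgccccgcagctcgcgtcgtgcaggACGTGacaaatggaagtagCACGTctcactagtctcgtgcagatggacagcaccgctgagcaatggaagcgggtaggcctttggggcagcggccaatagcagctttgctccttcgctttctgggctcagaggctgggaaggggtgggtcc
Bnip3 holds both letter strings in 1 overlapping run, starting 108 bases before the start. Ankrd37 holds ACGTG 241 and 6 bases before the start, and Pgk1 holds ACGTG at 150 and CACGT at 131. Promoters were matched for 15 of the 17 members, all but Ndrg1 and Ero1l, and 12 of the 15 held the string on either strand. It was present in 8 of 10 matched members called lower, all but Adm and Pdk1, and in 4 of 5 not called, all but Eno1. Over all RefSeq mouse promoters of the same length, 5444 of 32851 held it (16.6%). Several members have more than 1 promoter entry, and entry by entry 14 of 23 held it. The G form, counted after the A form was seen, was in 10 of the 15 members, Adm, Pdk1 and Eno1 among them, and in 9250 of all promoters (28.2%). One form or the other was in all 15 matched members, 20 of their 23 entries, and in 12679 of all promoters (38.6%). A match describes letters only, and called and uncalled members did not differ in holding one form or the other.

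Heat-shock and dissociation-response genes were also mostly lower where called. Of 15 tested, 5 were lower and 2 higher, and 1 of the 2 higher was above all carcinoma libraries. The median was -0.64 against CT26, 0.04 against CT26NYESO1, -1.39 against EMT6 and 0.56 against Renca, so the lines differed in direction. Hspa1b, an inducible HSP70 chaperone, had 1.02, 1.45 and 1.604 TPM in CMS5a, against 7.195, 21.98 and 204 TPM in the carcinomas (log2 fold change -3.59, SE 0.22, limma adjusted p = 8.1e-09). Hspa1a, its near-identical copy with which it may share reads, had 0.908, 1.26 and 1.09 TPM in CMS5a, against 3.55, 8.82 and 60.7 TPM in the carcinomas (log2 fold change -2.496, SE 0.22, limma adjusted p = 4.1e-07). Both were below all carcinoma libraries. Hspb1, a small heat-shock protein, had 1.302, 0.671 and 2.14 TPM in CMS5a, against 0.209, 53.7 and 287 TPM in the carcinomas (log2 fold change -2.85, SE 0.21, limma adjusted p = 5.8e-08), a difference from EMT6 and Renca only. Atf3, a stress-induced transcription factor, had 4.75, 6.84 and 8.06 TPM in CMS5a, against 5.43, 24.3 and 86.02 TPM in the carcinomas (log2 fold change -1.62, SE 0.20, limma adjusted p = 1.2e-05). Its difference lay mainly against EMT6 and Renca (-2.63 and -3.40), with -0.39 against CT26 and -0.05 against CT26NYESO1. The time between tumour removal and lysis is not given for any library, and its part in these values was not tested.

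Some growth-control genes were called, while no proliferation gene was. None of 17 proliferation genes was called in either direction, with a median log2 fold change of 0.0998. In 4 of these 17, all CMS5a libraries still lay above all carcinoma libraries, as in 9.02% of all genes tested. The median was -0.10 against CT26, -0.17 against CT26NYESO1, 0.42 against EMT6 and 0.51 against Renca. Of 9 growth-control genes, 3 were higher and 2 lower. Cdkn1a, the p21 inhibitor and a target of p53, had 14.9, 20.99 and 20.1 TPM in CMS5a, against 84.6, 163 and 213 TPM in the carcinomas (log2 fold change -2.901, SE 0.12, limma adjusted p = 7.2e-11), below every carcinoma library. Cdkn2a, the p16 and ARF locus, had 107, 106 and 107 TPM in CMS5a, against 0.245, 4.22 and 320.0 TPM in the carcinomas (log2 fold change 3.59, SE 0.17, limma adjusted p = 4.7e-10). Cdkn2b, the adjacent p15 gene, had 12.9, 11.7 and 12.9 TPM in CMS5a, against 0.147, 0.561 and 27.7 TPM in the carcinomas (log2 fold change 2.18, SE 0.13, limma adjusted p = 3.1e-09). Renca held more of both than CMS5a (-1.34 and -0.89), and the other carcinomas held less. Ccnd1, cyclin D1, had 77.4, 91.9 and 72.8 TPM in CMS5a, against 41.7, 367 and 648 TPM in the carcinomas (log2 fold change -1.64, SE 0.14, limma adjusted p = 2.1e-07), and was not lower against Renca (0.63). Trp53 (109.7 to 163 TPM in CMS5a, against 37.9 to 159 TPM), its inhibitor Mdm2 (25.99 to 40.2 TPM, against 27.9 to 94.3 TPM) and Myc (61.7 to 89.1 TPM, against 45.9 to 107 TPM) were not called.

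Endothelial genes separated CMS5a from 3 of the carcinoma lines more than from Renca. Of 18 tested, 14 were higher and 0 lower, with medians of 2.08 against CT26, 2.33 against CT26NYESO1, 2.57 against EMT6 and 0.203 against Renca. Cdh5, the cadherin of endothelial junctions, had 38.1, 45.9 and 42.1 TPM in CMS5a, against 0.7201, 2.34 and 24.1 TPM in the carcinomas (log2 fold change 3.18, SE 0.28, limma adjusted p = 3.4e-07), with no overlap. Emcn, a sialomucin of veins and capillaries, had 27.5, 16.7 and 29.3 TPM in CMS5a, against 0.385, 1.15 and 25.6 TPM in the carcinomas (log2 fold change 2.83, SE 0.28, limma adjusted p = 1.1e-06). Plvap, which forms the diaphragms of fenestrated vessels, had 34.8, 34.2 and 40.5 TPM in CMS5a, against 1.499, 4.44 and 56.3 TPM in the carcinomas (log2 fold change 2.23, SE 0.22, limma adjusted p = 9.4e-07). Renca overlapped in both, as in Egfl7 (42.5 to 55.6 TPM in CMS5a, against 3.55 to 89.6 TPM, log2 fold change 2.14). Flt1, Vwf, Ptprb and Lyve1 were not called. Of 5 mural-cell genes, 2 were higher and 0 lower: Rgs5, of pericytes, had 22.1, 15.6 and 16.4 TPM in CMS5a, against 0.4003, 2.84 and 23.5 TPM in the carcinomas (log2 fold change 2.09, SE 0.29, limma adjusted p = 3.7e-05). The other was Mcam, with 36.2, 25.6 and 37.2 TPM in CMS5a, against 1.63, 4.303 and 45.8 TPM in the carcinomas (log2 fold change 2.05, SE 0.26, limma adjusted p = 1.3e-05), and Renca matched CMS5a in both (0.15 and -0.297).

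Erythroid genes were higher as well, 5 of 6, with a median of 1.91. Alas2, the first enzyme of haem synthesis in red cells, had 112, 171 and 181 TPM in CMS5a, against 11.4, 38.3 and 69.8 TPM in the carcinomas (log2 fold change 2.08, SE 0.32, limma adjusted p = 9.1e-05). The globins Hbb-bs and Hbb-bt, near-identical copies that may share reads, had 7497, 10291 and 14655 TPM and 2671, 3770.4 and 5141 TPM in CMS5a, against 1400.1, 3031 and 5217 TPM and 474, 989.9 and 1968 TPM in the carcinomas, with log2 fold changes of 1.902 and 1.93. All CMS5a libraries were above all carcinoma libraries for these 3 genes. The lines did not follow the same order for blood and vessel genes: haemoglobin RNA averaged 3.16% of TPM in CMS5a and 0.778% in Renca, the lowest of the 5 lines, whereas the endothelial genes summed to a mean of 313 TPM in CMS5a and 334 TPM in Renca.

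The general leukocyte genes gave 0 calls upward and 0 downward among 10, with a median of 0.23. The mean log2(TPM + 1) of this list was 5.85 to 6.12 in CMS5a libraries, against 5.02 to 6.58 in carcinoma libraries, with the lowest in Renca and the highest in EMT6. Among B-cell genes, 3 of 10 were higher and 0 lower. At a pseudocount of 0.1, 10 were higher, while higher calls over all genes also rose, from 1402 to 1957. With CT26 left out or averaged with CT26NYESO1, 5 were higher. Cd79a, a chain of the B-cell receptor complex, had 11.1, 11.2 and 14.9 TPM in CMS5a, against 0.188, 1.68 and 4.14 TPM in the carcinomas (log2 fold change 2.29, SE 0.22, limma adjusted p = 6.7e-07), with no overlap. Cd79b, its partner, had 3.604, 5.52 and 7.29 TPM in CMS5a, against 0.256, 1.62 and 5.29 TPM in the carcinomas (log2 fold change 1.29, SE 0.24, limma adjusted p = 4.3e-04), and overlapped with Renca. Fcrla (2.51 to 4.69 TPM in CMS5a, against 0.177 to 2.12 TPM) was the other call and was lost without EMT6. Among plasma-cell genes, 6 of 11 were higher and 0 lower, and 3 with EMT6 left out or the leukocyte score as a covariate. Ighm, the IgM heavy chain, had 65.8, 60.3 and 67.5 TPM in CMS5a, against 10.9, 22.4 and 38.9 TPM in the carcinomas (log2 fold change 1.48, SE 0.25, limma adjusted p = 2.0e-04), with no overlap. Igkc, the kappa light chain, had 21.3, 16.03 and 17.1 TPM in CMS5a, against 0.386, 5.16 and 19.7 TPM in the carcinomas (log2 fold change 1.85, SE 0.34, limma adjusted p = 4.3e-04), and Iglc2, of the lambda locus, had 5.83, 2.28 and 4.47 TPM, against 0, 1.02 and 3.03 TPM (log2 fold change 1.36, SE 0.22, limma adjusted p = 1.6e-04). Both overlapped. The call on Igha (limma adjusted p = 0.031) was lost in several settings, among them without CMS5a replicate 1, without CMS5a replicate 2, without CT26 or without EMT6.

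Myeloid genes gave calls mainly in the monocyte list, with 5 of 9 higher, 0 lower and a median of 1.24. Plac8, a small cytosolic protein of inflammatory monocytes, had 582, 634 and 632 TPM in CMS5a, against 57.97, 127 and 414 TPM in the carcinomas (log2 fold change 2.16, SE 0.17, limma adjusted p = 8.7e-08). Ms4a4c had 60.1, 49.4 and 41.4 TPM in CMS5a, against 3.09, 20.6 and 38.6 TPM in the carcinomas (log2 fold change 1.57, SE 0.22, limma adjusted p = 3.1e-05), and Treml4, of patrolling monocytes, had 5.36, 6.11 and 5.299 TPM, against 0.771, 1.51 and 3.45 TPM (log2 fold change 1.28, SE 0.19, limma adjusted p = 6.3e-05). These 3 did not overlap. Ly6c2 (65.4 to 87.3 TPM in CMS5a, against 6.51 to 96.96 TPM) lost its call without Renca, and Ccr2, the receptor that brings monocytes to tissue, was not called (0.18). Of 7 plasmacytoid dendritic cell genes, 3 were higher and 0 lower. Siglech, their surface lectin, had 13.1, 8.32 and 9.64 TPM in CMS5a, against 0.577, 2.43 and 6.75 TPM in the carcinomas (log2 fold change 1.69, SE 0.21, limma adjusted p = 1.4e-05), with no overlap. Klk1 overlapped (6.44 to 12.1 TPM in CMS5a, against 0.395 to 8.28 TPM), and the call on Ccr9 was lost without any of CMS5a replicate 1, CT26 replicate 2, CT26NYESO1 replicate 3, EMT6 replicate 1 or Renca replicate 1. Among macrophage genes, 1 of 15 was called, the lipid carrier Apoe (1115 to 1367 TPM in CMS5a, against 172 to 2001 TPM), and that call was lost without CT26NYESO1. The complement-component genes C1qa, C1qb and C1qc were not called (0.31, 0.34 and 0.37). Conventional dendritic cells gave 1 call of 10, Clec10a, which was lost without EMT6, and mature dendritic cells 1 of 6, the actin-bundling Fscn1, lost without Renca. None of 10 neutrophil genes or 3 eosinophil genes was called. Gata2 was the sole mast-cell and basophil gene called of 11, -1.78 on the log2 scale, and was not lower against Renca (0.64). Lists with 1 call cannot be told from the shares over all genes tested, 8.58% higher and 6.52% lower.

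None of 17 T-cell genes was called: Cd3e was at 3.09 to 3.96 TPM in CMS5a, against 0.123 to 14.9 TPM in the carcinomas (log2 fold change 0.03), and Cd4 at 3.79 to 4.46 TPM, against 0.341 to 5.08 TPM (0.58). None of 7 regulatory T-cell genes or 10 NK-cell genes was called either. The cytotoxicity list gave 5 lower and 0 higher of 14, and 4 of those were granzymes of 1 gene cluster, whose reads may be shared. Gzmc, a granzyme of long-stimulated killer cells, had 1.45, 1.56 and 1.47 TPM in CMS5a, against 0.346, 21.8 and 89.1 TPM in the carcinomas (log2 fold change -2.58, SE 0.25, limma adjusted p = 8.8e-07). Gzmd had 0, 0 and 0.252 TPM in CMS5a, against 0, 5.62 and 61.8 TPM in the carcinomas (log2 fold change -2.57, SE 0.42, limma adjusted p = 1.6e-04), and Gzmf had 0, 0 and 0.214 TPM, against 0, 6.65 and 72.2 TPM (log2 fold change -2.64, SE 0.52, limma adjusted p = 7.9e-04). Renca was as low as CMS5a or close to it, with log2 fold changes for CMS5a against that line of 0.75, -0.24 and 0.09, none of them called. Gzme was listed at 0 in all CMS5a libraries, against 0.582, 2.08 and 27.6 TPM in the carcinomas, and Prf1, perforin, was at 3.35 to 3.71 TPM, against 0.291 to 69.9 TPM (log2 fold change -1.12). Gzma and Gzmb were not called (0.27 and -0.88). Cd274, which encodes the checkpoint ligand PD-L1, had 8.08, 8.13 and 5.26 TPM in CMS5a, against 10.1, 28.2 and 55.1 TPM in the carcinomas (log2 fold change -1.81, SE 0.40, limma adjusted p = 0.0019), below every carcinoma library. Its receptor Pdcd1 (0.457 to 0.616 TPM in CMS5a, against 0.146 to 9.78 TPM) was called lower, and that call was lost without CT26NYESO1. The calls on Tigit and Cd80 were lost without CT26 or without CT26NYESO1, and that on Tigit without CMS5a replicate 1 and that on Cd80 without CMS5a replicate 3.

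The antigen-presentation and interferon-induced GTPase lists were too short for their calls to be told from the shares over all genes tested, 8.58% higher and 6.52% lower. Of 11 MHC class I genes, 1 was lower: H2-D1, a classical class I heavy chain, had 788, 618 and 686 TPM in CMS5a, against 1374, 2371 and 3577 TPM in the carcinomas (log2 fold change -1.75, SE 0.17, limma adjusted p = 1.0e-06), below every carcinoma library. Reads of H2-D1 may be shared with other class I genes, and its allele in BALB/c differs from that of the mm10 strain, so the level is uncertain. None of 10 class II genes was called. In the interferon response, 9 of 24 genes were higher and 0 lower, with medians of 0.197 against CT26, 0.23 against CT26NYESO1, 0.43 against EMT6 and 1.93 against Renca. With Renca left out 2 were called higher, and 4 with the leukocyte score as a covariate. Ifit1, which binds foreign RNA, had 70.3, 65.6 and 52.4 TPM in CMS5a, against 2.14, 25.98 and 47.2 TPM in the carcinomas (log2 fold change 1.83, SE 0.23, limma adjusted p = 1.5e-05). Oasl1, a member of the oligoadenylate synthetase family, had 70.6, 86.9 and 65.8 TPM in CMS5a, against 17.3, 33.1 and 41.96 TPM in the carcinomas (log2 fold change 1.27, SE 0.14, limma adjusted p = 3.4e-06). Both were above every carcinoma library. Ifit3b and Mx1 were called (1.51 and 1.32), but not with Renca left out. Of 13 interferon-induced GTPases, 1 was lower, Gbp7, with 17.01, 17.6 and 8.18 TPM in CMS5a, against 4.01, 77.5 and 174 TPM in the carcinomas (log2 fold change -1.82, SE 0.48, limma adjusted p = 0.0064), and not without CMS5a replicate 3 (limma adjusted p = 0.05). Gbp7 was not lower against Renca (0.71).

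Secreted immune mediators differed by member. Arg1, the arginase of suppressive myeloid cells, had 3.71, 7.17 and 10.2 TPM in CMS5a, against 1.37, 112 and 356 TPM in the carcinomas (log2 fold change -3.06, SE 0.37, limma adjusted p = 9.5e-06), with Renca as low as CMS5a. Nos2, inducible nitric oxide synthase, had 0.935, 0.833 and 0.779 TPM in CMS5a, against 0.661, 4.22 and 24.1 TPM in the carcinomas (log2 fold change -1.67, SE 0.40, limma adjusted p = 0.003). They were the 2 calls of 6 suppressive mediators. Cxcl2, which draws in neutrophils, had 0.716, 0.731 and 1.16 TPM in CMS5a, against 1.55, 9.43 and 121 TPM in the carcinomas (log2 fold change -3.05, SE 0.26, limma adjusted p = 2.3e-07), below every carcinoma library. Cxcl3, of the same family, was called higher (17.1, 26.4 and 19.6 TPM in CMS5a, against 0.377, 7.67 and 47.5 TPM), a call lost without CT26NYESO1, and Cxcl1 lower (7.89, 13.4 and 8.38 TPM, against 9.02, 24.96 and 79.1 TPM), a call lost without EMT6. Among other chemokines, Ccl7, a monocyte attractant, had 96.003, 113 and 101 TPM in CMS5a, against 18.9, 43.8 and 66.9 TPM in the carcinomas (log2 fold change 1.26, SE 0.23, limma adjusted p = 3.8e-04), with no overlap. Cx3cl1, fractalkine, had 31.7, 38.3 and 36.7 TPM in CMS5a, against 0.447, 2.19 and 46.98 TPM in the carcinomas (log2 fold change 2.85, SE 0.20, limma adjusted p = 2.5e-08), and EMT6 held as much. Ccl5 was higher (1.099) but not without Renca or without EMT6 replicate 1, and Ccl3 lower (-1.45) but not without EMT6. Of 13 cytokines, 3 were lower and 0 higher, and 6 were lower without CMS5a replicate 2. Lif, a cytokine of the interleukin-6 family, had 1.08, 1.94 and 1.09 TPM in CMS5a, against 3.43, 10.7 and 33.3 TPM in the carcinomas (log2 fold change -2.44, SE 0.16, limma adjusted p = 1.7e-08), below every carcinoma library. Il11, of the same family, had 0.767, 0.925 and 1.001 TPM in CMS5a, against 0.434, 12.2 and 20.9 TPM in the carcinomas (log2 fold change -2.19, SE 0.16, limma adjusted p = 5.7e-08), and Il33, an alarmin, lost its call without EMT6. Il11 was not lower against Renca (0.24). Of 8 complement genes, 3 were lower, and 1 with CT26 left out. C3, the central component, had 7.04, 8.59 and 7.21 TPM in CMS5a, against 17.1, 44.9 and 258 TPM in the carcinomas (log2 fold change -2.64, SE 0.30, limma adjusted p = 5.1e-06), below every carcinoma library, whereas the calls on Serping1 and C1s1 were lost without CT26 and that on C1s1 also without any of CMS5a replicate 3, CT26 replicate 3, CT26NYESO1 replicate 1, EMT6 replicate 3 or Renca replicate 3.

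The X chromosome was examined after several X-linked genes were seen among the largest differences, so its counts are a description. Of 545 X-linked genes tested, 121 were called higher (22.2%) and 20 lower (3.67%), and 95 were higher and separated (17.4%). Over all genes tested these shares were 8.58%, 6.52% and 5.4%. The median log2 fold change was 0.43, beside 0.04 over all genes tested, and 74.7% of the X-linked genes were positive. The median was 0.22 against CT26, 0.35 against CT26NYESO1, 0.38 against EMT6 and 0.81 against Renca. In the same order, 19.3%, 22.4%, 24.8% and 40% were called higher, beside 10.2%, 10.3%, 9.87% and 16.8% over all genes tested. Under median-ratio scaling, 112 of these genes were called higher. Xist, the noncoding RNA that coats an inactive X chromosome, was at 3.55 to 12.2 TPM in CMS5a, against 4.34 to 14.6 TPM in the carcinomas, and was not called (log2 fold change 0.103). Capn6, a calpain-like protein without protease activity, had 103, 119 and 73.4 TPM in CMS5a, against 0.0241, 0.495 and 3.43 TPM in the carcinomas (log2 fold change 5.89, SE 0.23, limma adjusted p = 4.6e-11). Xlr3c, a member of a lymphocyte-regulated X-linked family, had 51.6, 59.2 and 46.4 TPM in CMS5a, against 0, 0.0124 and 0.342 TPM in the carcinomas (log2 fold change 5.63, SE 0.09, limma adjusted p = 1.0e-14). Rhox2h, a reproductive homeobox gene, had 149, 130.4 and 130.3 TPM in CMS5a, against 0, 0 and 69.6 TPM in the carcinomas (log2 fold change 5.74, SE 0.18, limma adjusted p = 8.3e-12), with Renca the only carcinoma that expressed it. The Rhox2 and Xlr3 copies are near identical and may share reads. Families on the X chromosome that were picked after their values were seen gave 6 of 7 Mage-family genes higher (Magef1, which lies on chromosome 16, was the exception), 4 of 6 Armcx genes, 3 of 3 Rtl8 genes and 3 of 3 Tceal genes, with 0 lower in each. Maged2, whose human form is needed for salt uptake in the kidney, was at 119.7 to 132 TPM in CMS5a, against 1.16 to 43.6 TPM in the carcinomas (log2 fold change 4.301).

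**Figure D5:**
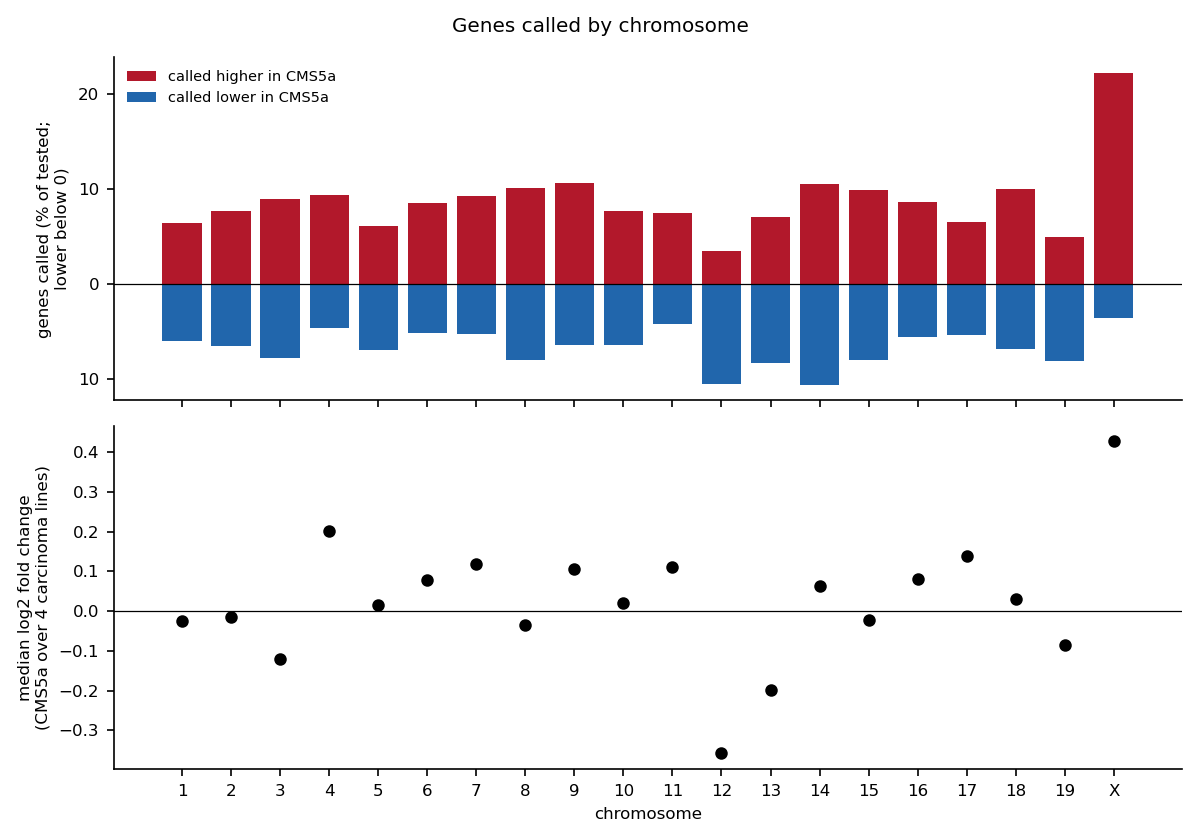
Top, the share of tested genes on each chromosome called higher (red, above 0) and lower (blue, below 0) in CMS5a; bottom, the median log2 fold change of all tested genes on it. The X chromosome has 22.2% called higher and a median of 0.43, and chromosomes 12 and 14 each have 10.6% called lower, with medians of -0.36 and 0.06.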

How the data were processed

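The deposited table gives TPM for 55291 gene symbols in 30 libraries, made by the authors, and each library sums to 1000000. Per the submitters' processing notes, Trim Galore 0.6.5, STAR 2.7.3a and StringTie 2.1.2 were used with mm10; the annotation and any use of strand are not given in the sources used here, so reads of copies, overlapping genes and antisense partners may be mixed. The test took genes that reached 1 TPM in 3 or more of the 15 libraries, as log2(TPM + 1) with limma 3.58.1 (R 4.3.3, trend in the variance, 5 line means, 10 residual degrees of freedom), with Benjamini-Hochberg adjustment over 16345 genes. On simulated data for this comparison, with 200 genes changed by 1.5 on the log2 scale, 189 were recovered with 2 false calls. The simulation gave all lines the same mean apart from these changes, which were placed in genes above a set level. It had no spread between carcinoma lines, so it does not measure false calls that arise from such spread. TPM keep no depth, so no counting interval is given. The 53 lists hold 703 genes, of which 591 were tested. The comparison, members and lists were chosen with earlier results of these data known, so the list counts are descriptions. Named genes were, by size of change, the top 15 upward and 12 downward calls, without predicted genes, pseudogenes and receptor segments, and up to 4 called members a list with the largest change; other members named were chosen after their values were seen. Coordinates are from GENCODE M21 on mm10 (15982 genes with 1 chromosome) and promoters from RefSeq GRCm38.p6. Python 3.11.15, pandas 2.3.3, numpy 2.4.6 and matplotlib 3.10.9 were used. Alternatives were another scaling, pseudocount, filter or fold threshold, a replicate block, line means as units, a leukocyte covariate, all 30 libraries, and each library or carcinoma line left out. Columns of the other 5 lines entered only the fit of all 30 libraries.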

Additional observations from a re-analysis of the deposited data

How the results depend on the processing

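The counts of called genes, though not all counts of separated genes, stayed within 1.5 times the reported ones under median-ratio scaling, without mitochondrial transcripts, without the filter, with the leukocyte score as a covariate, in the fit of all 30 libraries and with each carcinoma line left out. Without the fold threshold, limma called 4097 genes higher and 3655 lower against the 4 lines. In the same setting it called 3887 and 3128 against CT26, 3690 and 2946 against CT26NYESO1, 3537 and 3490 against EMT6, and 5554 and 3721 against Renca. A pseudocount of 0.1 gave 1735 lower. With line means as units the counts were 12 and 0, with an unadjusted p under 0.05 and the same fold for 645 and 232, so nearly all calls rest on the spread within lines. Genes with all CMS5a libraries above the carcinomas numbered 2290 without CMS5a replicate 3, and 2405 with Renca left out, when 1823 were below. Leaving out CMS5a replicate 1 or 2 instead gave 1618 and 1537 above. Leaving out CT26, CT26NYESO1 or EMT6 gave 1647, 1691 and 2095. Removing libraries can only keep or raise these counts, and the cause of the size of each rise was not tested.

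With each library left out in turn, calls against the 4 lines ranged over 1331 to 1642 higher and 1028 to 1145 lower. The ranges were 1588 to 1859 and 1305 to 1790 against CT26, 1594 to 1895 and 1131 to 1372 against CT26NYESO1, 1535 to 1846 and 1573 to 1867 against EMT6, and 2355 to 3327 and 2023 to 2163 against Renca. Separation ranged over 1478 to 2290 genes above and 797 to 1020 below. Of 150 named genes, 6 stayed called with line means as units. With EMT6 left out 139 did, with Renca 139, with CT26 144 and with CT26NYESO1 145. In the other settings 145 to 150 did. Cldn3 turned to a log2 fold change of 0.028 with Renca left out. Median-ratio scaling moved the median of all genes to -0.03, with 52.4% of calls higher in CMS5a, against 56.8% without it. A fit with replicate number as a block gave 1397 higher and 1064 lower and lost 0 named calls. Library deviations of the same number correlated at r = -0.38 to 0.35 across genes, 8 of 30 pairs above 0.1, and 1 of 15 libraries fitted best with its own number, so the numbers were not taken to pair libraries.

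Sequencing depth is unknown, so genes near 1 TPM are the least certain. The comparison has 1 sarcoma line, CT26 and CT26NYESO1 share their origin, and host strain and OK-432 are not tied to libraries.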

Other observations

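Clustered protocadherins of the beta group, adhesion proteins that cells express from a gene array on chromosome 18, were called higher for 13 of 18 tested and lower for 0, and 12 of these were above all carcinoma libraries. Over all genes tested, 8.58% were called higher, and 5.4% were both called higher and above all carcinoma libraries. The median log2 fold change was 1.69, and 1.42, 1.62, 1.81 and 1.93 against CT26, CT26NYESO1, EMT6 and Renca. Pcdhb9 was at 10.1 to 17.4 TPM in CMS5a, against 0.0916 to 0.573 TPM in the carcinomas, and Pcdhb5 at 7.99 to 11.8 TPM, against 0.009199 to 0.8698 TPM. The gamma group next to them gave 2 higher and 2 lower of 14. The family was picked after its values were seen, its levels are low, and its copies may share reads, so these counts carry no test of their own.

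Among aldo-keto reductases of the Akr1c cluster on chromosome 13, also picked after seeing their values, 3 of 4 were higher and 1 lower. Akr1c14 was at 52.9 to 96.001 TPM in CMS5a, against 0 to 19.1 TPM in the carcinomas, and Akr1c12 at 31.7 to 35.7 TPM, against 0.1596 to 5.59 TPM. Akr1c18, which breaks down progesterone, ran the other way, at 0 to 0.198 TPM, against 0.214 to 139.6 TPM. The metallothionein Mt1, the neighbour of Mt2, was called lower at 158 to 225 TPM in CMS5a, against 212 to 1320.2 TPM, and Mt3 was listed at 0 in CMS5a and was not called.

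Chromosome 12, singled out after the counts by chromosome were seen, had 58 of 548 genes called lower (10.6%, beside 6.52% over all genes tested) and 19 higher (3.47%, beside 8.58%). Chromosome 14 had as large a share lower (61 of 573, 10.6%) and 10.5% higher, with a median of 0.06, and chromosome 13 had 8.35% lower and a median of -0.199. The median log2 fold change on chromosome 12 was -0.36, with 23.2% of its genes positive. The median was -0.28 against CT26, -0.25 against CT26NYESO1, -0.49 against EMT6 and -0.1997 against Renca. Among the lower genes were Ahr, the aryl hydrocarbon receptor, at 1.13 to 2.03 TPM in CMS5a, against 1.79 to 51.6 TPM in the carcinomas, E2f6, a repressor of cell-cycle genes, at 2.86 to 4.24 TPM, against 10.2 to 24.7 TPM, and the thioesterase Acot1 at 0.156 to 0.581 TPM, against 2.73 to 20.1 TPM. The cause of the shift was not tested.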
